A study of Mus musculus with 20 samples.

Results

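The 9 genes Dnmt1, Dnmt3a, Dnmt3b, Tet1, Tet2, Tet3, Mbd1, Mbd2 and Mbd3 encode proteins that write, erase and read DNA methylation. They were chosen by name from the 32245 gene symbols of a table of read counts, and all 9 passed the filter on low counts that left 15373 genes to test. The table holds 20 libraries of ribosome-bound RNA from mouse hippocampus, collected at 6 ages. There were 5 libraries at postnatal day 5 (P5) and 3 each at P7, P10, P15, P21 and P28, all of the genotype Rbp4-Cre:RiboTag and with no treatment in the labels. Strain and sex were not stated in the labels used.

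In these mice a Cre recombinase under the control of Rbp4 regulatory sequence turns on an HA tag on RPL22, a ribosomal protein. Pulling down the tag then enriches RNA from cells in which Cre has acted, labelled here as hippocampal granule cells, the main excitatory neurons of the dentate gyrus. Libraries of unselected hippocampal RNA were not analysed here, so enrichment over the tissue was not measured. The values are levels of RNA on ribosomes and not of protein, enzyme activity or DNA methylation.

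DNA methylation in mammals sits mostly on the cytosine of CG pairs. DNMT1 copies the mark onto the new strand after replication, and DNMT3A and DNMT3B place it on DNA that lacked it. TET1, TET2 and TET3 oxidise methylcytosine to hydroxymethylcytosine and further forms, and MBD proteins bind methylated CG pairs. MBD2 and MBD3 are alternative subunits of the NuRD chromatin remodelling and deacetylase complex, and mammalian MBD3 binds the methylated pair only weakly. Neurons of the postnatal brain are known for abundant hydroxymethylcytosine and for methylation outside CG pairs, laid down by DNMT3A in the weeks after birth.

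Total counts were between 15862200 and 24933500 per library, and 3 counts, below which a level cannot be told from 0 by counting error, stood for 0.122 to 0.181 CPM (counts-per-million units). Levels are CPM scaled by trimmed-mean (TMM) factors. Libraries fell into 3 batches by their labels. Batch A covers P10, P15 and 3 of the P5 libraries, batch B covers P7 and the other 2 of P5, and batch C covers P21 and P28. The model therefore carried a batch B term, estimable at P5, through which P7 is set against P10. Age and batch C cannot be told apart in any comparison of P21 or P28 with an earlier age. No label ties libraries to separate animals, so p-values measure the spread between these libraries, which may be technical. The summed level of 8 granule cell markers was 2333 to 2397 CPM at P28 and 1425 to 1550 CPM at P5, and markers of other cell types were also present, among them 8 oligodendrocyte lineage genes (387 to 476 CPM at P28, 70.3 to 130 CPM at P5). In such bulk libraries, fewer cells of a type and less RNA per cell cannot be told apart.

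By mean level, the genes that write and erase methylation were highest at P5 or P7, and the 3 readers at P21 or P28. All 9 changed over the 6 ages in edgeR's quasi-likelihood F test with Benjamini-Hochberg adjustment, where 79.7% of all genes tested did so. None of the 3 readers passed the threshold at P21 against P15 or at P28 against P21, so their late maxima were not told apart from P15 by these steps. The ratio of the highest to the lowest mean over the 6 ages was 4.01 for Tet1, 3.83 for Dnmt3b and 3.47 for Dnmt3a. For the other 6 genes it lay between 1.22 for Mbd3 and 1.72 for Tet3 and Dnmt1.

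**Figure D1:**
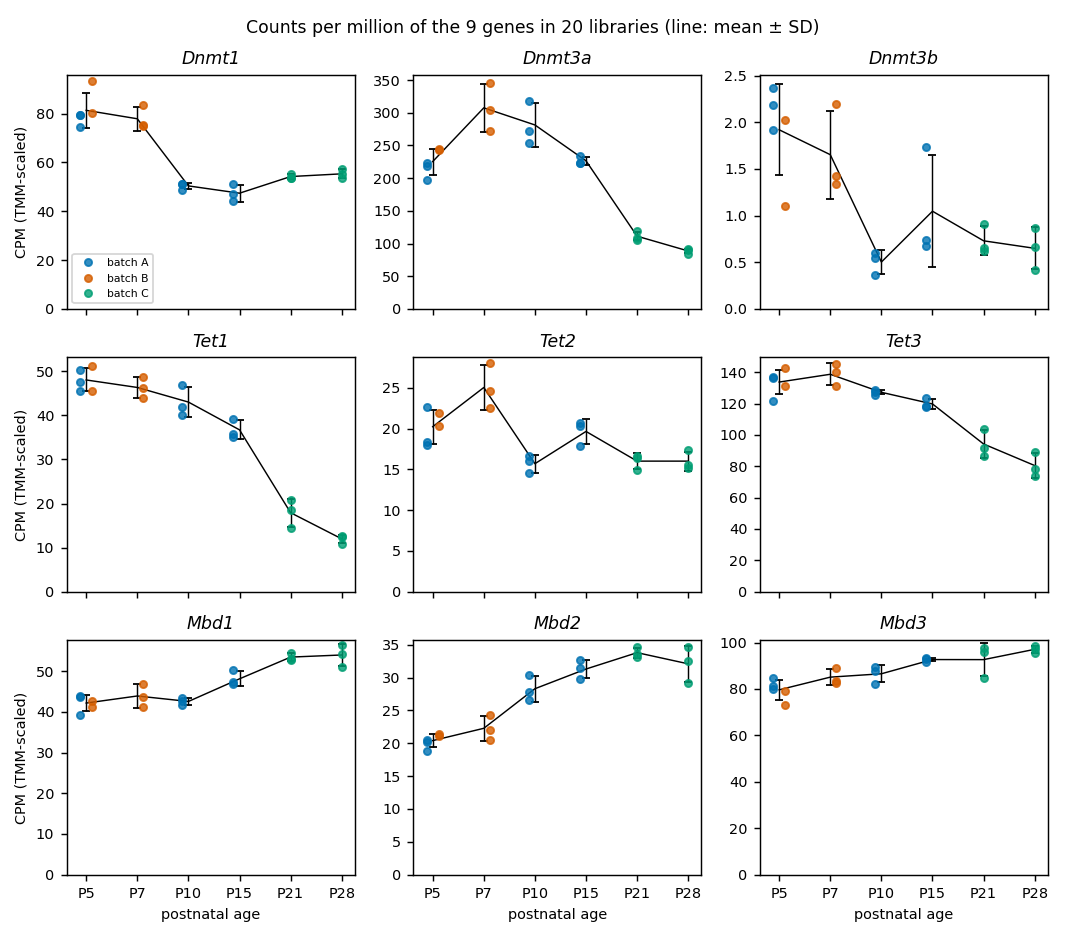
Levels of the 9 genes in CPM (TMM-scaled, linear axes from 0) against postnatal age. Points are the 20 libraries coloured by batch, and the line joins the means with SD bars. Tet1 declined over the 6 ages to 12.0 CPM at P28, Dnmt3a had its highest mean, 308 CPM, at P7 (batch B), and Mbd2 and Mbd3 were lowest at P5.

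Dnmt3a, the de novo methyltransferase, had its highest mean level at P7, where all libraries are of batch B, and its lowest at P28. In the edgeR fit with the batch B term, P10 was not lower than P7 (log2 change 0.07, SE 0.12, adjusted p = 0.673). Its 5 P5 libraries held 197, 219 and 224 CPM in batch A and 244 and 244 CPM in batch B. The P7 libraries held 305, 346 and 272 CPM, the P10 libraries 273, 253 and 318 CPM and the P15 libraries 234, 223 and 223 CPM. The P21 libraries held 119, 106 and 109 CPM and the P28 libraries 84.5, 90.1 and 91.1 CPM. Every P7 and P10 library was thus above every P5 library, the P15 libraries lay within the P5 range, and every P21 and P28 library was below all earlier ones. On the log2 scale Dnmt3a was 0.33 higher at P7 than at P5 (SE 0.09, adjusted p = 0.0164), and it was the single member called in that comparison, where 11% of all genes tested were called (6.15% higher and 4.89% lower). It fell by 0.31 at P15 relative to P10 (SE 0.08, adjusted p = 0.0264), again the single member called, where 4.36% of all genes were called (1.84% higher and 2.52% lower).

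The larger step came later. At P21 Dnmt3a was 2.04-fold lower than at P15 (log2 change -1.03, SE 0.08, adjusted p = 5.4e-09), and this step joins batch C to batch A. At P28 the log2 difference from P21 was -0.33 (SE 0.08, adjusted p = 0.0881), with all 3 P28 libraries below all 3 P21 libraries. Within batch C alone the same difference passed the threshold (-0.33, adjusted p = 0.00706), and so it did with DESeq2 (adjusted p = 0.0255) and without P7 replicate 3 (0.0474) or P10 replicate 3 (0.0494). Between P28 and P5 the log2 change was -1.27 (SE 0.08, adjusted p = 2.3e-12), whereas between P15 and P5 it was 0.09 (SE 0.08, adjusted p = 0.339). The call at P7 was lost without P5 replicate 1 of batch B (adjusted p = 0.133), P5 replicate 3 of batch B (0.0909) or P7 replicate 2 (0.0668) and within batch B alone (0.0887). With library totals in place of TMM the Dnmt3a change at P7 was 0.22 (adjusted p = 0.0523), and the single member called there was Dnmt1, at a log2 change of -0.27 (adjusted p = 0.00784). The call at P15 against P10 was lost without P10 replicate 1 (0.0572), P10 replicate 3 (0.223), P15 replicate 2 (0.0934) or P15 replicate 3 (0.122) and with no batch term (0.0617).

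Dnmt3a lies on chromosome 12 (3806007 to 3914443, plus strand, mm10, GENCODE vM21) and is transcribed from an outer start and, in mouse, from an inner start that gives the shorter form Dnmt3a2. Counts per gene do not separate these forms. Of its exonic bases, 133 overlap the antisense gene Dnmt3aos, which had 0 counts in every library. The DNA just before an outer start and the inner start is shown for its CG pairs, the kind of site on which DNA methylation mostly sits. The pairs are written in capitals in an otherwise lower-case sequence, 5′ to 3′ on the plus strand of GRCm38.p6 from RefSeq. The outer window shown lies inside the gene span given above. A further outer window that overlaps it, with 40 CG pairs, is not shown.
Dnmt3a outer start, chr12:3806730-3806979: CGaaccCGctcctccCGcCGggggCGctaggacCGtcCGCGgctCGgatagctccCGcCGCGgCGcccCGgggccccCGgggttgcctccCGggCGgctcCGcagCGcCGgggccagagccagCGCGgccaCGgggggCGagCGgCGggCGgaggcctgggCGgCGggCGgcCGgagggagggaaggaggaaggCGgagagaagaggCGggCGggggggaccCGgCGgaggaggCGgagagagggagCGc
Dnmt3a inner start, chr12:3891494-3891727: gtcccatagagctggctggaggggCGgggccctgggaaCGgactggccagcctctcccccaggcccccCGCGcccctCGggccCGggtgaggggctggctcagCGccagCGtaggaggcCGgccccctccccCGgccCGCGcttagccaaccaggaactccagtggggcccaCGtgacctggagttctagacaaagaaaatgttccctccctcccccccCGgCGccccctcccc
The outer window of 250 bases holds 38 CG pairs, more than 98.1% of the 32851 mouse promoter windows of that length, whose median is 6. The full inner window of 250 bases holds 15, more than 72.7% of them. These are counts of letters on either strand, since CG reads the same on both, and methylation at them was not measured.

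Dnmt1, the maintenance methyltransferase on chromosome 9 (20907209 to 20959888, minus strand), stepped down between P7 and P10 and stayed lower. At P5 it held 79.4, 79.4 and 74.4 CPM in batch A and 80.1 and 93.6 CPM in batch B, and at P7 75.2, 83.7 and 74.9 CPM. The P10 libraries held 51.2, 51.1 and 48.9 CPM, and the P15 libraries 51.0, 44.1 and 47.2 CPM. The P21 libraries held 53.8, 53.7 and 55.3 CPM and the P28 libraries 55.3, 53.5 and 57.2 CPM. All 12 libraries of P10 and later lay below all 8 of P5 and P7. At P10 Dnmt1 was 1.38-fold lower than at P7 (log2 change -0.47, SE 0.10, adjusted p = 0.000475), and at P15 it was 1.64-fold lower than at P5 (-0.71, SE 0.07, adjusted p = 1.1e-09). Between P28 and P5 the log2 change was -0.49 (SE 0.07, adjusted p = 3.7e-07). At P21 it was 0.19 higher than at P15 on the log2 scale (SE 0.07, adjusted p = 0.0304). This small rise was lost with library totals in place of TMM (adjusted p = 0.0519), with no filter on low counts (0.0532), with no batch term (0.0595) and without P15 replicate 2 (0.186), P15 replicate 3 (0.0942), P21 replicate 1 (0.0704), P21 replicate 2 (0.0665) or P21 replicate 3 (0.0984).

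Dnmt3b, the other de novo methyltransferase, prominent in early embryos, was scarce in these libraries, with 6 to 54 counts each. At P5 it held 2.19, 2.37 and 1.92 CPM in batch A, and 1.1 and 2.02 CPM in batch B, and at P7 it held 1.34, 1.42 and 2.20 CPM. The P10 libraries held 0.543, 0.361 and 0.602 CPM, and the P15 libraries 0.734, 0.671 and 1.74 CPM. It held 0.656, 0.909 and 0.624 CPM at P21 and 0.658, 0.419 and 0.870 CPM at P28. The P10 libraries lay below all P5 and P7 libraries, while P15 replicate 3 overlapped them. Dnmt3b was 4.55-fold lower at P10 than at P7 (log2 change -2.19, SE 0.55, adjusted p = 0.00268). This fitted fold includes the batch B term (-0.47 on the log2 scale, SE 0.37), and the mean levels were 1.65 CPM at P7 and 0.502 CPM at P10. At P28 Dnmt3b was 3.33-fold lower than at P5 (-1.74, SE 0.38, adjusted p = 0.000248). Between P15 and P5 the log2 change was -1.04 (SE 0.35, adjusted p = 0.0118), and the call was lost without P15 replicate 1 (adjusted p = 0.0558) or P15 replicate 2 (0.0667). Dnmt3b lies on chromosome 2 (153649450 to 153687730, plus strand). Its near copy Dnmt3c had 0 to 3 counts per library, and since it is not known how reads matching both were treated, the low level of Dnmt3b is uncertain to that extent. The 250 bases before its start, shown for the same reason as those of Dnmt3a and with CG pairs in capitals, hold 21 CG pairs, more than 83.7% of all promoter windows.
Dnmt3b, chr2:153649199-153649448, plus strand: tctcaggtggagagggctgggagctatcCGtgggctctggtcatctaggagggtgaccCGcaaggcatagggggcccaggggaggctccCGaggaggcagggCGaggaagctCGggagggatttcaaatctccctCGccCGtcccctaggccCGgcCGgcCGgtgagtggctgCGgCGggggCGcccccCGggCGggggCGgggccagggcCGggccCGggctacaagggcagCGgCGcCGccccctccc

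Levels of different genes were compared after division by exon length in kb. On this scale Dnmt3a exceeded Dnmt1 up to P15, and Dnmt3b was the lowest of the 9 at every age. As a share of the length-scaled sum of the 3 Dnmt genes, Dnmt3a took 54.3%, 62.8%, 70.8%, 67.3%, 47.1% and 41.1% over the 6 ages in order (SD 1.24 to 2.80 percentage points). Dnmt1 took 44.2%, 36.0%, 28.8%, 31.7%, 51.9% and 57.9%. The age at which Dnmt1 passes Dnmt3a depends on the length used. With the longest transcript in place of all exons, Dnmt3a still took 54.9% at P21 and 48.8% at P28, against 44.3% and 50.4% for Dnmt1.

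**Figure D2:**
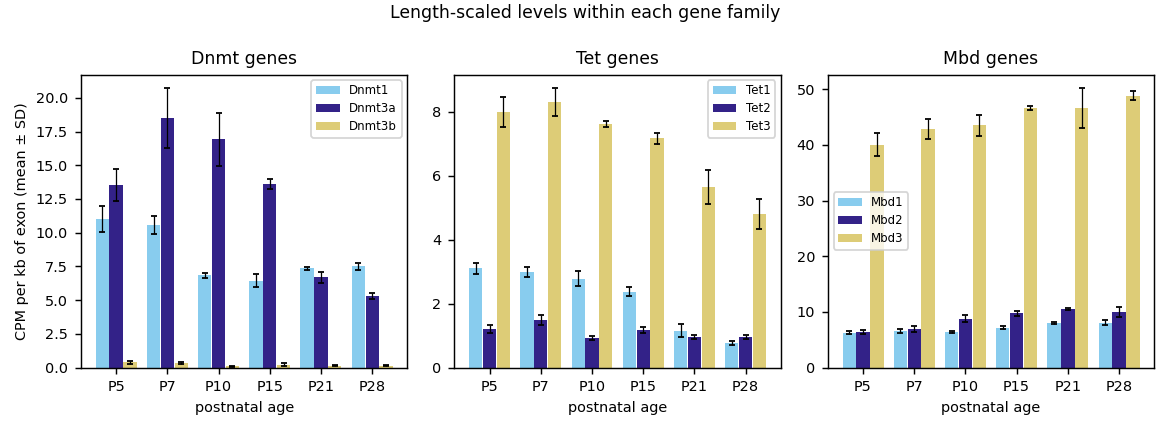
Length-scaled levels (CPM per kb of exon, mean with SD bars, 5 libraries at P5 and 3 at each later age) of the Dnmt, Tet and Mbd genes by postnatal age, each panel with its own axis from 0. Dnmt3a exceeds Dnmt1 up to P15, Tet3 is the highest Tet gene and Mbd3 the highest Mbd gene at all 6 ages.

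Tet1, a dioxygenase with a CXXC domain that binds unmethylated CG pairs, had the largest fitted fall of the 9 genes at P28 against P5. At P5 it held 45.6, 47.7 and 50.3 CPM in batch A and 45.5 and 51.1 CPM in batch B. At P7 it held 44.0, 48.8 and 46.2 CPM, at P10 42.0, 40.2 and 46.9 CPM and at P15 39.2, 35.1 and 35.8 CPM. The P21 libraries held 18.4, 14.5 and 20.8 CPM and the P28 libraries 10.9, 12.7 and 12.4 CPM. P15, P21 and P28 formed separate steps, with no overlap between them. Tet1 fell by 0.38 on the log2 scale at P15 relative to P5 (SE 0.09, adjusted p = 0.000846). It was 2.05-fold lower at P21 than at P15 (log2 change -1.03, SE 0.10, adjusted p = 4.5e-08), a step that joins 2 batches, and 3.99-fold lower at P28 than at P5 (SE 0.10 on the log2 scale, adjusted p = 8.7e-15).

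Between P28 and P21, inside batch C, Tet1 was the single member called, in a comparison where 0.254% of all genes were called (0.065% higher and 0.189% lower). The log2 change was -0.58 (SE 0.11, adjusted p = 0.0160), with all 3 P28 libraries below all 3 P21 libraries. Without P21 replicate 1, P21 replicate 3 or any of the P28 libraries the change of Tet1 kept its sign (-0.45 to -0.62) and the adjusted p was 0.0535 to 0.149. Tet1 lies on chromosome 10 (62804570 to 62908996, minus strand).

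Tet3, a dioxygenase of the same family, declined late. The P5 libraries held 122, 136 and 137 CPM in batch A, and 131 and 143 CPM in batch B, and the P7 libraries 140, 145 and 131 CPM. At P10 it held 128, 126 and 127 CPM and at P15 123, 118 and 118 CPM. The P21 libraries held 104, 86.8 and 91.8 CPM and the P28 libraries 78.4, 73.9 and 89.1 CPM. Every P21 and P28 library was below every earlier one, and P28 and P21 overlapped. The log2 change was -0.35 at P21 against P15 (SE 0.07, adjusted p = 0.000639) and -0.71 at P28 against P5 (SE 0.07, adjusted p = 3.0e-09). At P15 against P5 it was -0.14 (SE 0.07, adjusted p = 0.0926), and with library totals in place of TMM it was -0.26 (adjusted p = 0.00148). The Tet3 difference also passed with no batch term (adjusted p = 0.0380), within batch A alone (0.0393) and without P5 replicate 1 of batch A (0.0333). Tet3 lies on chromosome 6 (83362373 to 83459084, minus strand). Stretches before inner starts of Tet1 and Tet3, left free of exons, are given on the minus strand with CG pairs in capitals. They are shown because these Tet genes fell the most at P28 against P5. Both stretches lie inside the gene spans given above, and the DNA before the outer ends of those spans is not shown.
Tet1, chr10:62887325-62887412, minus strand: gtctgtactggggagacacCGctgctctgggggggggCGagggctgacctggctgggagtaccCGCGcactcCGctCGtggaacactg
Tet3, chr6:83441679-83441754, minus strand: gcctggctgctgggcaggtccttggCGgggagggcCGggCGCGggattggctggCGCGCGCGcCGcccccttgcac
These runs hold 6 CG pairs in 88 bases for Tet1 and 9 in 76 bases for Tet3. The full windows of 250 bases hold 15 and 17, more than 72.7% and 76.5% of all promoter windows.

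Tet2, a family member without a CXXC domain of its own, moved least steadily. The P5 libraries held 18.0, 22.7 and 18.3 CPM in batch A and 20.4 and 21.9 CPM in batch B. At P7 it held 24.6, 22.5 and 28.1 CPM, at P10 16.0, 16.6 and 14.5 CPM and at P15 17.9, 20.7 and 20.3 CPM. At P21 it held 16.7, 14.9 and 16.4 CPM and at P28 15.2, 15.5 and 17.3 CPM. The P10 libraries lay below all P7 libraries, and the P15 and P5 libraries overlapped. Tet2 fell by 0.57 on the log2 scale at P10 relative to P7 (SE 0.15, adjusted p = 0.00425) and by 0.30 at P21 relative to P15 (SE 0.10, adjusted p = 0.0337). Between P28 and P5 the log2 change was -0.30 (SE 0.10, adjusted p = 0.0140), and between P15 and P5 it was 0.00 (SE 0.10, adjusted p = 1.00). The call at P21 was lost without P15 replicate 2 (adjusted p = 0.123), P15 replicate 3 (0.0892), P21 replicate 2 (0.135) or P21 replicate 3 (0.0553), and the call of P28 against P5 without P5 replicate 2 of batch A (0.139, log2 change -0.18) or P28 replicate 1 (0.0551). Tet2 lies on chromosome 3 (133463679 to 133545139, minus strand), where 43 exonic bases overlap the predicted gene Gm42567, itself at 0 to 2 counts per library.

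Within the length-scaled sum of the Tet genes, Tet3 took most at every age and Tet1 lost share. Over the 6 ages in order, Tet1 took 25.2%, 23.4%, 24.5%, 22.2%, 14.9% and 11.9%. Tet3 took 65.0%, 64.9%, 67.2%, 67.0%, 72.8% and 73.6%, and Tet2 took 9.74%, 11.6%, 8.22%, 10.9%, 12.3% and 14.5%. At P28 Tet2 (0.949 ± 0.0684 CPM per kb) lay above Tet1 (0.775 ± 0.0637 CPM per kb, SD, n = 3 each), and at P5 Tet1 (3.11 ± 0.169 CPM per kb) lay above Tet2 (1.20 ± 0.124 CPM per kb, SD, n = 5 each).

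Mbd2, a methyl-CG binding subunit of NuRD on chromosome 18 (70568189 to 70626131, plus strand), rose the most of the readers. At P5 it held 20.5, 18.8 and 20.2 CPM in batch A, and 21.5 and 21.1 CPM in batch B, and at P7 it held 24.3, 22.1 and 20.5 CPM. At P10 it held 26.6, 30.5 and 27.9 CPM and at P15 32.6, 29.8 and 31.5 CPM. At P21 it held 34.6, 33.6 and 33.1 CPM and at P28 29.1, 34.7 and 32.5 CPM. All 12 libraries of P10 and later lay above all 8 of P5 and P7. Mbd2 was 1.36-fold higher at P10 than at P7 (log2 change 0.45, SE 0.12, adjusted p = 0.0044), 1.58-fold higher at P15 than at P5 (0.66, SE 0.08, adjusted p = 1.2e-07) and 1.62-fold higher at P28 than at P5 (0.69, SE 0.08, adjusted p = 3.5e-08).

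Mbd1, a reader with CXXC domains beside its methyl-CG binding domain, rose slightly. It lies on chromosome 18 as well (74267605 to 74282732, plus strand). At P5 it held 43.8, 43.9 and 39.1 CPM in batch A, and 42.8 and 41.3 CPM in batch B. The P7 libraries held 43.6, 41.2 and 47.0 CPM and the P10 libraries 43.5, 41.6 and 42.6 CPM. At P15 it held 46.8, 47.5 and 50.2 CPM, at P21 54.6, 52.9 and 53.1 CPM and at P28 54.4, 51.1 and 56.6 CPM. Each P15 library was above each P5 and P10 library, and each P21 library above each P15 library. The log2 change was 0.19 at P15 against P5 (SE 0.06, adjusted p = 0.0123) and 0.35 at P28 against P5 (SE 0.06, adjusted p = 2.4e-05). The P15 call was lost with library totals in place of TMM (0.07, adjusted p = 0.425) and without P5 replicate 3 of batch A (0.13, adjusted p = 0.0934) or P15 replicate 3 (0.15, adjusted p = 0.0670).

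Mbd3, the NuRD subunit that binds methylated CG pairs weakly, lies on chromosome 10 (80392539 to 80399550, minus strand) and changed least of the 9. The P5 libraries held 84.6, 80.1 and 81.1 CPM in batch A, and 79.1 and 73.1 CPM in batch B. The P7 libraries held 83.4, 89.2 and 82.7 CPM and the P10 libraries 89.5, 87.8 and 82.3 CPM. At P15 it held 93.3, 91.8 and 92.9 CPM, at P21 84.6, 95.8 and 97.5 CPM and at P28 95.4, 98.6 and 97.1 CPM. The P15 and P28 libraries lay above all P5 libraries, and P21 replicate 1 lay within the P5 range. The log2 change was 0.18 at P15 against P5 (SE 0.06, adjusted p = 0.00972) and 0.24 at P28 against P5 (SE 0.06, adjusted p = 0.000575). With library totals in place of TMM, neither passed (0.06, adjusted p = 0.385, and 0.12, adjusted p = 0.0551).

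Per kb of exon, Mbd3 was the highest of the 9 genes at every age, with 48.8 ± 0.804 CPM per kb at P28 (SD, n = 3) and 40.1 ± 2.11 CPM per kb at P5 (SD, n = 5). At P5 it was followed by Dnmt3a, Dnmt1, Tet3, Mbd2, Mbd1, Tet1, Tet2 and Dnmt3b, where Mbd2 (6.35 ± 0.317) and Mbd1 (6.29 ± 0.298) did not differ beyond their spread. At P28 the order after Mbd3 was Mbd2, Mbd1, Dnmt1, Dnmt3a, Tet3, Tet2, Tet1 and Dnmt3b. There Mbd1 (8.06 ± 0.410) and Dnmt1 (7.50 ± 0.250), and Dnmt3a (5.32 ± 0.216) and Tet3 (4.82 ± 0.469), lay closer than the sum of their SDs. The Mbd3 share of the 3 Mbd genes stayed between 71.5% and 76.0%.

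**Figure D3:**
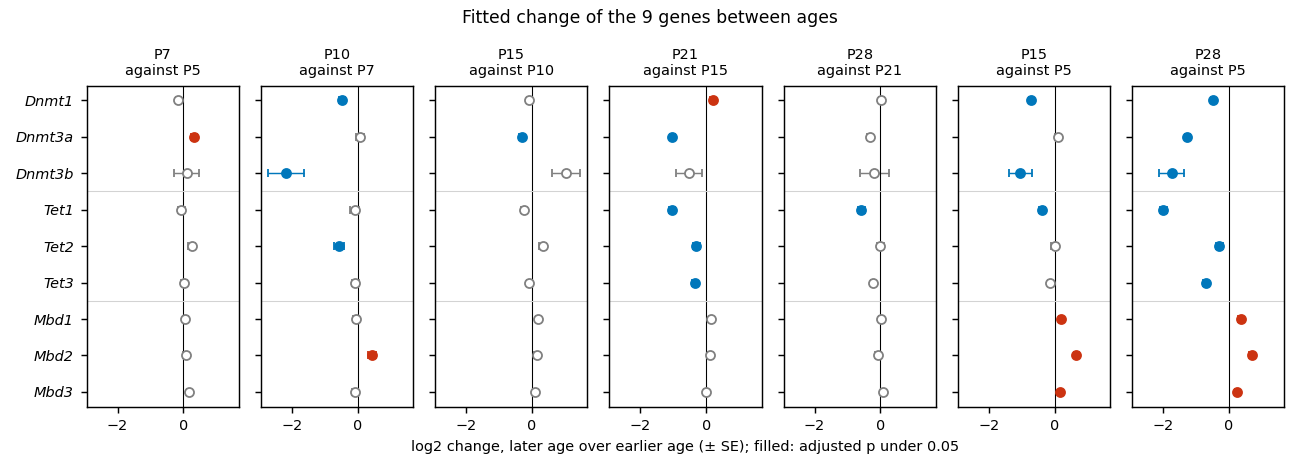
Fitted log2 change (later age over earlier age, bars ± SE) of the 9 genes in 7 comparisons of ages, from edgeR. Filled points passed an adjusted p of 0.05, red higher and blue lower at the later age. The Mbd genes have no blue point, and Dnmt3a and Tet1 moved by -1.03 each at P21 against P15.

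Counted by comparison, the directions of the 9 members split by role over the longest interval, where age and batch C cannot be told apart. At P28 against P5 all 9 members were called, 3 higher and 6 lower, where 71.6% of all genes tested were called, 35.2% higher and 36.4% lower. The 3 that were higher were the readers, of which Mbd3 fell short of the threshold with library totals in place of TMM (adjusted p = 0.0551). At P15 against P5, 3 were higher and 3 lower (all genes 31.6% and 31.8%, 63.4% in either direction). At P10 against P7, Mbd2 was higher and Dnmt1, Dnmt3b and Tet2 were lower (all genes 22.5% and 20.3%, 42.8% in either direction). At P21 against P15, Dnmt1 was higher and Dnmt3a, Tet1, Tet2 and Tet3 were lower (all genes 14% and 14.8%, 28.8% in either direction). Between the 2 batches at P5, edgeR called 0 of the 9 (10.1% of all genes, 6.65% higher and 3.42% lower) and 2 of them, Dnmt1 and Dnmt3a, had an unadjusted p under 0.05, with log2 differences of batch B over batch A of 0.16 and 0.20. DESeq2 was not used for this comparison.

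Marker genes of several other cell types moved in the same steps, in directions that differed by type. Between P10 and P7, where Dnmt1, Dnmt3b and Tet2 fell, all 10 cycling cell markers were lower, with summed levels of 27.9 to 35.1 CPM at P10 against 84.3 to 104 CPM at P7. Stem and progenitor markers were lower in 6 of 7 cases (sums of 48.0 to 69.9 CPM at P10, 177 to 213 CPM at P7). Lower as well were 6 of 6 endothelial and mural markers (36.7 to 46.0 CPM at P10, 65.4 to 84.1 CPM at P7), 5 of 5 Cajal-Retzius markers (38.5 to 44.6 CPM at P10, 81.5 to 108 CPM at P7) and 3 of 6 astrocyte markers (233 to 359 CPM at P10, 429 to 448 CPM at P7). Of the 8 granule cell markers 5 were higher and 1 lower at P10 (1874 to 2304 CPM at P10, 1281 to 1734 CPM at P7). Interneuron markers were 3 higher and 1 lower of 8 (265 to 313 CPM at P10, 185 to 225 CPM at P7). Oligodendrocyte lineage markers were 2 higher and 3 lower of 8 (135 to 267 CPM at P10, 97.2 to 107 CPM at P7). Of 6 microglia and 6 CA pyramidal markers, 0 were called. Of all genes 22.5% were higher and 20.3% lower in this comparison. Between P21 and P15, where Dnmt3a and the Tet genes fell, markers lower at P21 were 6 of 8 for interneurons (sums of 259 to 271 CPM at P21, 272 to 328 CPM at P15), 4 of 6 for endothelial and mural cells (19.5 to 24.2 CPM at P21, 30.1 to 43.5 CPM at P15) and 3 of 5 for Cajal-Retzius cells (14.5 to 24.7 CPM at P21, 34.4 to 39.2 CPM at P15). Of the interneuron markers 1 was higher, Gad1, which averaged 195 ± 11.8 CPM at P21 and 157 ± 8.43 CPM at P15 (SD, n = 3 each). Stem and progenitor markers were lower in 3 of 7 cases and cycling cell markers in 2 of 10. Microglia markers were lower in 2 of 6 cases, CA pyramidal markers in 1 of 6 and astrocyte markers in 0 of 6. Oligodendrocyte lineage markers were 1 higher and 3 lower of 8. Of all genes 14% were higher and 14.8% lower in this comparison. Of the 8 granule cell markers, 4 were higher at P21 (sums of 2281 to 2588 CPM at P21, 2057 to 2159 CPM at P15). In none of these lists was a marker at 0 in all libraries. The part of these cells in the changes of the 9 genes was not tested.

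Partners and cofactors of the DNMT enzymes divided. Of 6 genes, 5 could be tested, and at P15 against P5, 2 were higher and 3 lower, where 31.6% of all genes were higher and 31.8% lower (median log2 change -0.89, and -0.02 over all genes). Uhrf1, which brings DNMT1 to hemimethylated DNA behind the replication fork, averaged 1.20 ± 0.556 CPM at P15 (SD, n = 3) and 5.55 ± 1.03 CPM at P5 (SD, n = 5), a log2 change of -2.36 (SE 0.30, adjusted p = 3.0e-07). Cdca7 and Hells, which together form a nucleosome remodeller needed for methylation, changed by -1.37 (SE 0.27) and -0.89 (SE 0.23). Uhrf2, the paralogue of Uhrf1, averaged 65.4 ± 2.5 CPM at P15 and 54.4 ± 3.74 CPM at P5 and rose by 0.33 (SE 0.06, adjusted p = 1.9e-05). Usp7, a deubiquitinase that binds DNMT1 and UHRF1, rose by 0.15 (SE 0.05, adjusted p = 0.0206) with overlapping libraries. This Usp7 call was lost with library totals (0.03, adjusted p = 0.708), with no batch term (0.02, adjusted p = 0.802) and without P5 replicate 3 of batch A (0.0923), P15 replicate 1 (0.0596), P15 replicate 2 (0.0778) or P15 replicate 3 (0.0698). Usp7 also differed between batches B and A at P5 (0.29, adjusted p = 0.00236). Dnmt3l, a cofactor of the de novo enzymes, had 0 to 4 counts per library. At P10 against P7, Uhrf1 fell by 2.82 (SE 0.46, adjusted p = 3.9e-05), in the same step as the cycling cell markers and Dnmt1. This fitted change includes the batch B term, and the mean levels of Uhrf1 were 3.47 CPM at P7 and 0.663 CPM at P10, with 7 to 14 counts per library at P10. At P28 Dnmt1 averaged 55.4 ± 1.85 CPM (SD, n = 3), while Uhrf1 was at 0.210 to 0.986 CPM.

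**Figure D4:**
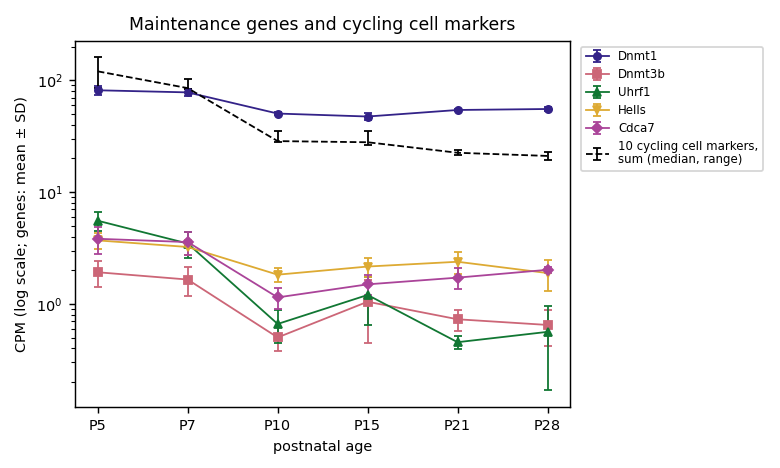
Levels in CPM (log axis) of Dnmt1, Dnmt3b, Uhrf1, Hells and Cdca7 (mean with SD bars) and the summed level of 10 cycling cell markers (median with range, dashed) at 6 postnatal ages. All 6 lines drop between P7 and P10, and Dnmt1 stays between 47.4 and 55.4 CPM thereafter.

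Of 14 genes of oxidised cytosine removal and base excision repair, 8 were higher and 3 lower at P15 against P5, where 31.6% of all genes were higher and 31.8% lower (median log2 change 0.31), and with library totals in place of TMM 6 were higher and 5 lower. Gadd45b and Gadd45g, stress and activity response genes that have been linked to DNA demethylation, rose by 2.22 (SE 0.17) and 1.05 (SE 0.10). Parp1, a sensor of strand breaks, rose by 0.57 (SE 0.07), and Idh1, the cytosolic source of the 2-oxoglutarate that TET enzymes use, fell by 2.83 (SE 0.19). Each of these 4 had an adjusted p of 4.5e-08 or less.

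A list of other readers of methylated CG pairs and of relatives of the Mbd genes had 3 genes higher and 2 lower of 9 at P15 against P5 (median 0.08). Of all genes 31.6% were higher and 31.8% lower. Mbd5, on the list as a relative of the Mbd genes and not as an established reader, rose by 0.58 (SE 0.06). The zinc finger reader Zbtb4 rose by 0.56 (SE 0.07) and the glycosylase Mbd4, which is also on the repair list, by 0.45 (SE 0.15). The Mbd4 call was lost with library totals (adjusted p = 0.0663) and without P5 replicate 3 of batch A (0.0695) or P15 replicate 1 (0.0506). Zfp57, which guards methylation at imprinted regions, fell by 2.43 (SE 0.28), and Zfp445, which shares that role, fell by 0.31 (SE 0.06). At P21 against P15, 6 of the 9 were higher, where 14% of all genes were. At P28 against P5, 6 of the 9 were higher and 2 lower, where 35.2% of all genes were higher and 36.4% lower.

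Among 8 genes of proteins with a CXXC domain, which binds unmethylated CG pairs, 1 was higher and 5 lower at P15 against P5 (median -0.41), where 31.6% of all genes were higher and 31.8% lower. Cxxc5 rose by 0.89 (SE 0.06). Kdm2b, a Polycomb-linked histone demethylase, fell by 1.39 (SE 0.08), Fbxl19 by 1.07 (SE 0.13), Cxxc4 by 1.04 (SE 0.29), the histone methyltransferase Kmt2a by 0.65 (SE 0.24) and Cxxc1 by 0.17 (SE 0.07). Without P5 replicate 1 of batch A, P5 replicate 3 of batch A or P15 replicate 2 the number lower was 3, as Kmt2a (adjusted p = 0.0596, 0.0708 and 0.0784) and Cxxc1 (0.0700, 0.0792 and 0.0838) lost their calls. Kmt2a also lost its call without P15 replicate 1 (0.0929), and Cxxc1 lost its call in 7 of 28 alternatives (0.0544 to 0.251). Of 13 NuRD subunits other than Mbd2 and Mbd3, 5 were higher and 3 lower (median -0.01, all genes 31.6% and 31.8%), and with library totals 5 were higher and 7 lower. The remodelling subunit Chd3 rose by 0.55 (SE 0.06), Mta3 by 0.61 (SE 0.07) and Rbbp7 by 0.42 (SE 0.06), while Gatad2a fell by 0.89 (SE 0.08).

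A list of genes of the cycle that makes the methyl donor S-adenosylmethionine, and of relatives of them, had 5 higher and 1 lower of 10 tested at P15 against P5 (median 0.34). Of all genes 31.6% were higher and 31.8% lower. Mat2b, the regulatory subunit of the donor-making enzyme, rose by 1.26 (SE 0.06), Mtrr by 0.82 (SE 0.09) and Mtr by 0.20. The mitochondrial enzyme Shmt2 fell by 0.20 (SE 0.07). Ahcyl2 and Ahcyl1, on the list as relatives of the cycle gene Ahcy and not as established enzymes of the cycle, rose by 1.80 (SE 0.08) and 0.51. Ahcy itself and Mat2a were not called. The call of Mtr (adjusted p = 0.0472) was lost in 24 of 28 alternatives (adjusted p 0.0508 to 0.436), and that of Shmt2 with no filter (0.0612), with no batch term (0.0827) and without P5 replicate 2 of batch A (0.0730).

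**Figure D5:**
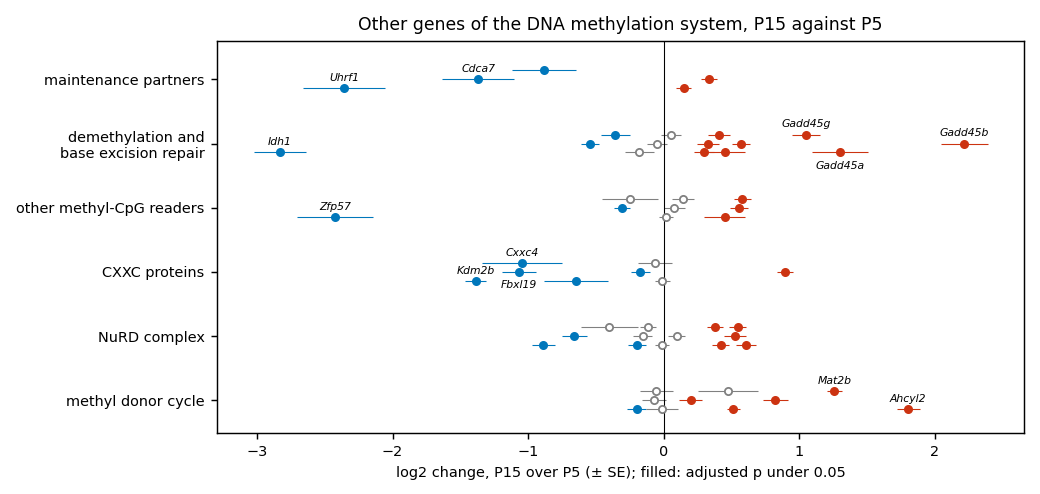
Fitted log2 change at P15 against P5 (bars ± SE) of the genes of 6 lists around the DNA methylation system, 1 row per list. Filled points passed an adjusted p of 0.05, and genes that moved by about 1 or more are named. Gadd45b stands at 2.22 and Idh1 at -2.83.

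The genes whose log2 levels followed each member most closely over the 20 libraries, among 10230 genes, are given as a description, since all libraries share their ages and batches. For Dnmt3a they were Wsb2 (Pearson r 0.986), Arhgef7 and Igsf9b, for Dnmt1 Chd6 (0.976), Vash1 and Zfp704, and for Dnmt3b Casp9 (0.931), Hdac7 and Adamts9. Tet1 and Tet3 shared a pair of their nearest genes, Mkrn3 (0.977 with Tet1, 0.966 with Tet3) and Sh3rf3 (0.975 and 0.966), followed by Lypd6 for Tet1 and Cacna1a for Tet3. The nearest to Tet2 were Cplane1 (0.896), Ylpm1 and Kank2. Mbd2 was followed most closely by Glo1 (0.982), Utp4 and Fn3krp, Mbd1 by Wdyhv1 (0.951), Plekhg3 and Csf1, and Mbd3 by Cactin (0.908), Xrcc1 and Rpusd1.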

How the data were processed

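The members and gene lists were chosen with earlier results of these data known. The authors deposited raw counts per gene, 1 column per library, and no normalization is in the file. Per the submitters' processing notes, STAR 2.7.5b, featureCounts and SAMtools 1.10 were used with mm10, and per the labels' protocols the kit was stranded and selected poly-A RNA. The annotation, strand setting and treatment of multiply mapping reads were not given in the sources used here, so counts of near copies and of overlapping genes are uncertain.

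Counts were fitted with edgeR 4.0.16 in R 4.3.3 (TMM factors, low-count filter by age, robust quasi-likelihood, a mean per age and a batch B term, 13 residual degrees of freedom, Benjamini-Hochberg adjustment over 15373 genes, threshold 0.05). The script was tested on simulated data. SE is the log2 change divided by the root of F. Libraries of the same age all differed by more than sampling noise (chi-square over df 3.70 to 40.7) and were each counted as 1 sample. Alternatives were DESeq2 1.42.0, its size factors, library totals, no filter, no batch term, a replicate block, single batches and leaving out each library. Length scaling used all exons of GENCODE vM21 on mm10. Genes were named by rule: all members, the 3 best correlated genes per member with a mean of at least 5 CPM, and in each other list all called genes, or with over 6 of them the 4 with the smallest p, at P15 against P5. Results for some genes under this rule are not reported here.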

Additional observations from a re-analysis of the deposited data

How the results depend on the processing

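The change of each member in each of 7 comparisons was recomputed under up to 30 alternatives (1737 values). None changed sign while past the threshold, 36 fell short of it where the value reported had passed, and 11 passed where it had not. The number of members called stayed within 1.5 times the reported one over the 6 ages, at P10 against P7, at P15 against P5 and at P28 against P5. At P7 against P5 (1 called) it was 2 (Dnmt3a and Tet2) with no batch term, 2 without the P5 libraries of batch B, 0 within batch B alone and 0 to 1 with 1 library left out. At P15 against P10 (1 called) it was 0 with no batch term and 0 to 1 with 1 library left out. At P21 against P15 (5 called) it was 3 to 5 with 1 library left out. At P28 against P21 (1 called) it was 2 with DESeq2, 2 within batch C alone and 0 to 2 with 1 library left out. Where edgeR called 0, unadjusted p-values under 0.05 numbered 1 to 5 of the 9. DESeq2 was run with all libraries and not for these. The causes were not tested. With library totals in place of TMM, the median of all genes moved by over 0.1 downward in comparisons with P5, to -0.14 for P15 and for P28 and to -0.10 for P7, where Mbd1 at P15 and Mbd3 at P15 and P28 lost their calls, as did Dnmt3a at P7 (0.22, adjusted p = 0.0523), while Dnmt1 at P7 gained one (-0.27, adjusted p = 0.00784). The share of all calls that were higher then became 18.0% in place of 55.7% at P7 against P5, 39.2% in place of 49.8% at P15 against P5 and 51.5% in place of 25.6% at P28 against P21.

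Libraries with the same replicate number did not deviate together (55 pairs, r from -0.24 to 0.23, 6 above 0.1), and 7 of 20 correlated best with their own number. A fit with the replicate number as a block called 9 members over the 6 ages, 1 at P7 against P5, 4 at P10 against P7, 1 at P15 against P10, 5 at P21 against P15, 1 at P28 against P21, 6 at P15 against P5 and 9 at P28 against P5, the same counts as without it, and over all genes 19 in place of 39 at P28 against P21. Length-scaled shares moved in 47 of 54 cases with the longest transcript and in 0 of 180 with 1 library left out. Counts in the other lists, recomputed by a choice made after seeing the data, stayed within 1.5 times in total. Depth limits Dnmt3b, at 6 to 54 counts per library.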
